A study of Drosophila melanogaster with 9 samples.

Results

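Double knockdown of NAT10 and Xrp1 was compared with knockdown of NAT10 alone across all genes of the wing imaginal disc, the epithelial sac of the larva from which the wing and dorsal thorax of the adult fly form, in Drosophila melanogaster. The members are the 6 libraries whose labels name these genotypes, 3 of each, out of 9 in the series. The double knockdown was en-GAL4 > UAS-NAT10-RNAi,Xrp1-RNAi and the NAT10 knockdown en-GAL4 > UAS-NAT10-RNAi, so both carried the en-GAL4 driver and RNA interference against NAT10, and they differed in the added RNA interference against Xrp1. The 3 driver controls, en-GAL4>+, are given beside them for scale. All libraries came from larvae in the third instar, of stocks kept at 25 °C, with 100 discs in an RNA extraction, and the design text calls the 3 of each genotype biological replicates. Because en-GAL4 drives expression in posterior cells, whole discs hold cells with and without the interfering RNA, and fewer cells of a type cannot be told apart from less RNA per cell. The labels name 1 more RNA interference construct in the double knockdown and none to match it in the NAT10 knockdown, so loss of Xrp1 and the added construct cannot be told apart.

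NAT10 acetylates cytidines, among them those of ribosomal RNA, and takes part in making the small ribosomal subunit. Xrp1 is a bZIP transcription factor that pairs with the C/EBP protein Irbp18, is induced when ribosomal protein genes are lost, and is known in the wing disc for slowing growth of such cells and for their removal in cell competition. The study was designed to ask how far the transcript changes of NAT10 knockdown rest on this Xrp1 response. Damaged or slow discs are also known to release signals that delay the steroid ecdysone, the hormone that drives the end of larval life, so genes of both kinds are described here.

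Levels are given as normalised CPM, with library size and TMM factor divided out, means are given ± SD (n = 3), and a fold change is the fitted log2 difference, double knockdown minus NAT10 knockdown, ± its standard error. Genes were called where edgeR's quasi-likelihood p, Benjamini-Hochberg adjusted over all genes tested, was under 0.05. The 6 libraries held 17036250 to 19949448 estimated counts. Pearson correlations within a genotype were 0.994 to 0.995, and the first principal component of the 6 libraries took 88.8% of the variance and separated the genotypes. Double knockdown replicate 3 stood apart from its group: the chi-square statistic of counts was 5.70 and 5.98 per gene in its pairs, against 2.21 in the other double knockdown pair and 2.47 to 2.91 in the NAT10 knockdown pairs. Control replicate 1, which is in the same fit, stood apart in like measure, at 5.87 and 5.31 against 2.14. Of 8 markers of the disc epithelium 6 were higher and none lower, and their summed level was 3045 to 3103 CPM in the double knockdown, 2518 to 2552 in the NAT10 knockdown and 3102 to 3241 in control.

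The targeted gene was lower in the libraries labelled with its interfering RNA. Xrp1 (FBgn0261113, 3R, 18914968 to 18926989, plus strand in BDGP6.54) stood at 425, 406 and 397 CPM in the double knockdown, against 944, 954 and 924 in the NAT10 knockdown, and at 521 ± 8.8 in control. The groups did not overlap, and the log2 fold change was -1.20 ± 0.028 (adjusted p = 9.6e-23). In the fly, NAT10 is the X-linked gene l(1)G0020 (8716713 to 8720277 on the minus strand in BDGP6.54, FBgn0027330). Its level was 75.1, 77.1 and 71.8 CPM in the double knockdown, against 61.4, 63.2 and 62.1 in the NAT10 knockdown, and 101 ± 1.36 in control. Every double knockdown library was above every NAT10 knockdown library (0.26 ± 0.042, adjusted p = 7.11e-06), so the transcript targeted in both genotypes was less reduced in the double knockdown. The part of this difference in the results below was not tested. The driver locus en and its neighbour inv, both posterior compartment genes, were also higher in the double knockdown, at log2 0.22 ± 0.042 and 0.39 ± 0.05 (adjusted p = 6.47e-05 and 2.11e-07). Control discs had 101 ± 2.59 CPM of en and 71.8 ± 4.02 of inv.

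Most tested genes (56.7%) differed between these genotypes, mostly by small amounts. Of 8487 genes tested, 2413 (28.4%) were higher and 2400 (28.3%) lower in the double knockdown, and 5192 had an unadjusted p under 0.05. The libraries did not overlap for 5351 genes (63%), with 2643 (31.1%) above and 2708 (31.9%) below. Differences of at least 2-fold were called for 489 genes higher (5.76%) and 408 lower (4.81%). Among the genes called higher 170 differed over 8-fold and 1716 by up to 1.5-fold, and among those called lower 74 differed over 8-fold and 1674 by up to 1.5-fold. The median log2 fold change over all genes was -0.01. Counts without double knockdown replicate 3 were 2494 higher and 2054 lower. For scale, 62.1% of the same genes were called between the NAT10 knockdown and control and 31.3% between the double knockdown and control; these comparisons share libraries with the main one, so levels are given side by side.

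**Figure D1:**
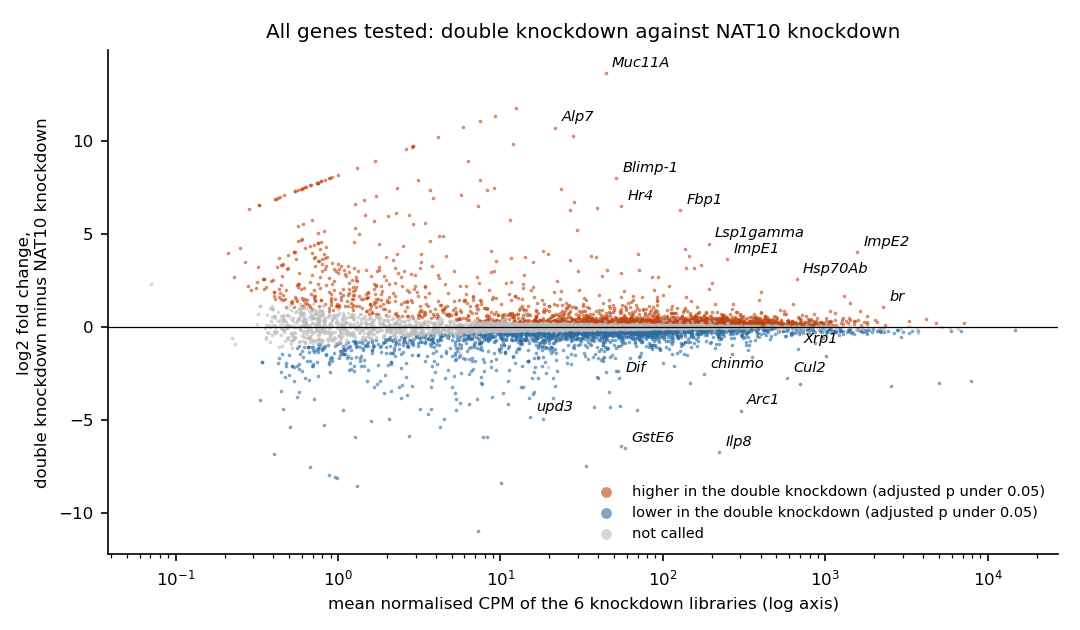
Log2 fold change, double knockdown minus NAT10 knockdown, against the mean normalised CPM of the 6 knockdown libraries on a log axis, 1 point a gene tested; 1 tested gene that is not reported here is left out. Genes called higher lie above 0 and genes called lower below it, and the named points include Ilp8 at -6.73 and Blimp-1 at 7.98; the diagonal row of points at the upper left is of genes with few or no counts in the NAT10 knockdown.

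**Figure D2:**
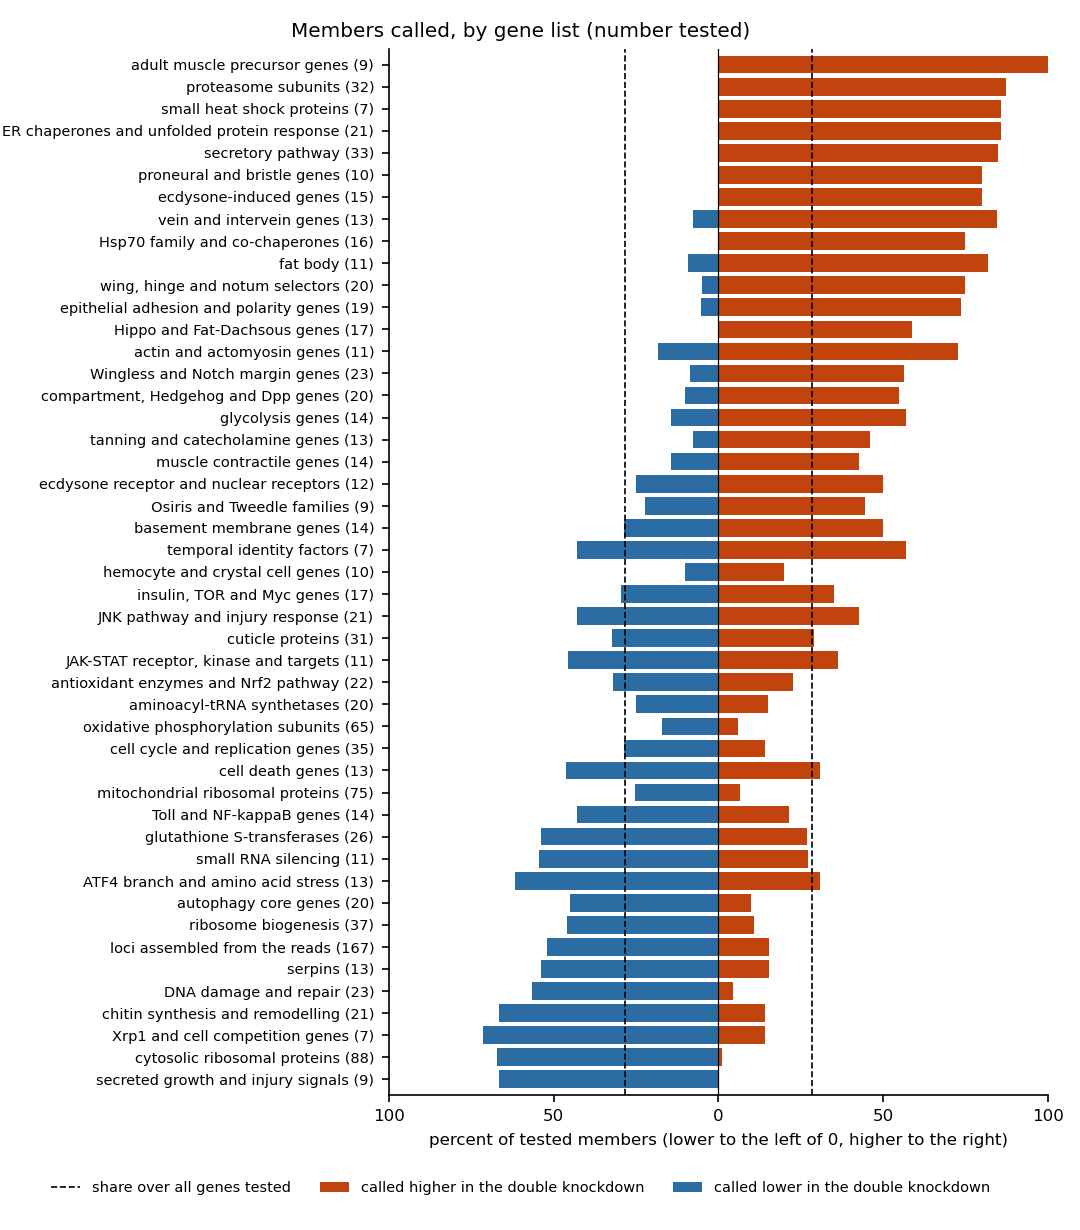
Percent of the tested members of each gene list that were called higher (to the right of 0) or lower (to the left) in the double knockdown, for lists with at least 7 tested members, whose number stands in brackets; dashed lines mark the 28.4% higher and 28.3% lower over all genes tested. Adult muscle precursor genes (100%) and proteasome subunits (87.5%) lie at the top with the largest shares higher, and cytosolic ribosomal proteins (67%) and secreted signals (66.7%) at the bottom by the balance of lower members.

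Most secreted signals of damaged discs were lower when Xrp1 was depleted as well. Among 9 secreted growth and injury signals none were higher, 6 were lower and 3 were not called (median log2 -0.58), against 28.4% higher and 28.3% lower and a median of -0.01 over all genes. Without NAT10 knockdown replicate 2, 1 of them was higher. Ilp8 (FBgn0036690, 3L, 17029812 to 17032080, minus strand in BDGP6.54), a relaxin-like peptide that delays pupariation, had 4.92, 3.9 and 3.56 CPM in the double knockdown, against 443, 444 and 435 in the NAT10 knockdown. The groups were far apart (-6.73 ± 0.058, adjusted p = 1.12e-31), and control had 0.658 ± 0.166. The JAK-STAT cytokine gene upd3 had 1, 0.989 and 1 CPM in the double knockdown, against 27.9, 29.5 and 30.3 in the NAT10 knockdown (log2 -4.86 ± 0.13, adjusted p = 1.34e-21). Its double knockdown level was close to the 0.922 ± 0.0798 of control. Its neighbours upd2 and upd1, which encode ligands of the same receptor, also fell, by 3.56 and 1.98 on the log2 scale. The tumour necrosis factor gene egr fell by 0.57 and the insulin-binding gene ImpL2 by 0.58. The Ilp8 receptor gene Lgr3 was not called, at 2.06, 2.58 and 2.31 CPM in the double knockdown, against 3.2, 2.95 and 3.17 in the NAT10 knockdown (log2 -0.43 ± 0.2, adjusted p = 0.0711).

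Downstream genes of the JAK-STAT and JNK pathways split. Of 11 JAK-STAT receptor, kinase and target genes tested 4 were higher, 5 were lower and 2 were not called. That is 36.4% higher and 45.5% lower, beside 28.4% and 28.3% over all genes. Socs36E, the feedback inhibitor of the pathway, had 95.1, 94 and 93.3 CPM in the double knockdown, against 207, 202 and 196 in the NAT10 knockdown and 91.7 ± 2.68 in control (log2 -1.10 ± 0.035). The stress peptide gene TotA was higher, at 2.11, 2.25 and 2.81 CPM in the double knockdown, against 0.515, 0.942 and 0.555 in the NAT10 knockdown (1.83 ± 0.31). The pathway's transcription factor gene Stat92E fell by 0.12. Of 21 JNK pathway and injury genes 9 were higher, 9 were lower and 3 were not called (median -0.01). Both shares were 42.9%, beside the same 28.4% and 28.3%. The ETS factor gene Ets21C, which shares 28.3% of its exon bases with nAChRbeta3 on the opposite strand, had 4.17, 4.45 and 4.51 CPM in the double knockdown, against 28.3, 31.4 and 30.1 in the NAT10 knockdown (log2 -2.77 ± 0.1). The groups were separate, and control had 6.59 ± 0.883. The stress genes Gadd45 and Atf3 fell by 1.21 and 0.84, and mol, a factor needed to mature the NADPH oxidase Duox, by 1.00. The JNK phosphatase gene puc fell by only 0.20. The 2 matrix metalloproteases went opposite ways: Mmp1 fell by 0.43, and Mmp2 rose, at 68.2, 71 and 65.7 CPM in the double knockdown, against 30.8, 30.3 and 30.3 in the NAT10 knockdown (log2 1.16 ± 0.049). The tumour necrosis factor receptor gene grnd was not called (-0.01 ± 0.034, adjusted p = 0.836), and its relative wgn rose by 0.77.

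**Figure D3:**
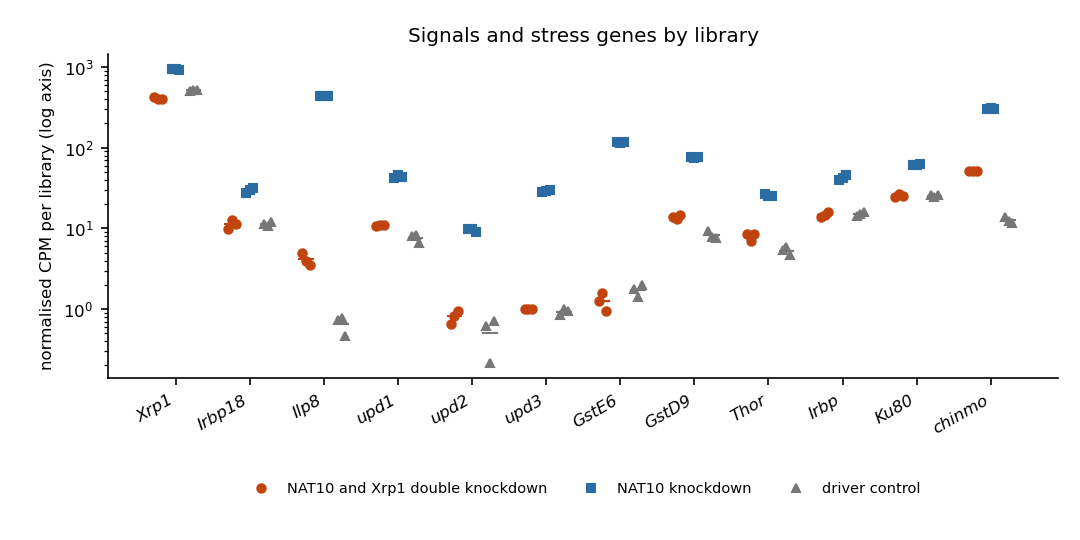
Normalised CPM of 12 genes in each library (log axis), with the double knockdown as circles, the NAT10 knockdown as squares and the driver control as triangles from left to right, and bars at the means. For each of these genes all 3 NAT10 knockdown libraries lie above all 3 double knockdown libraries. The double knockdown libraries lie between the NAT10 knockdown and control for chinmo, Ilp8, upd1, Thor and GstD9, and below control for Xrp1.

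Xrp1's partner gene and most tested genes of DNA repair were lower in the double knockdown. Of 7 tested genes in a list of Xrp1 and cell competition genes 1 was higher, 5 were lower and 1 was not called, Xrp1 itself included. That is 14.3% higher and 71.4% lower, beside 28.4% and 28.3% over all genes. The members that fell also held RpS12, a ribosomal protein through which cells sense ribosomal gene loss, Nedd4, a ubiquitin ligase, and Lerp, a lysosomal sorting receptor. Irbp18 had 9.94, 12.6 and 11.2 CPM in the double knockdown, against 27.6, 30 and 31.3 in the NAT10 knockdown, with no overlap (log2 -1.40 ± 0.087, adjusted p = 2.26e-13), and 11.3 ± 0.626 in control. The cell competition gene fwe was the 1 called higher, by 0.36. Of 23 DNA damage and repair genes 1 was higher, 13 were lower and 9 were not called (median -0.30). The shares were 4.35% higher and 56.5% lower, beside the same 28.4% and 28.3%. None was higher without double knockdown replicate 1 or NAT10 knockdown replicate 2, and 2 were without double knockdown replicate 3, NAT10 knockdown replicate 1 or control replicate 1. The 3 genes of the break-sensing complex fell together: mre11 by 1.11, nbs by 1.04 and rad50 by 0.93. Irbp and Ku80, the fly Ku70 and Ku80 genes of end joining, fell by 1.53 and 1.29, and the ligase gene DNAlig4 by 0.86. Irbp had 13.9, 14.7 and 16 CPM in the double knockdown, against 40.4, 42.4 and 45.8 in the NAT10 knockdown, with control at 15.1 ± 0.959. The tumour suppressor gene p53 had 16.9, 18.5 and 17.4 CPM in the double knockdown, against 32.4, 34.7 and 36.5 in the NAT10 knockdown (log2 -0.97 ± 0.071). By contrast the checkpoint kinase genes tefu, mei-41 and grp were not called, at log2 -0.05, -0.04 and 0.06.

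Of 13 tested cell death genes 4 were higher, 6 were lower and 3 were not called. The share higher, 30.8%, was near the 28.4% over all genes, and the share lower was 46.2% beside 28.3%, with hid among the lower members. The pro-apoptotic gene rpr fell by 0.72, with 8.94, 10.9 and 10.3 CPM in the double knockdown, against 18.5, 16.4 and 14.6 in the NAT10 knockdown. Its relative hid was near equal (-0.09 ± 0.038, adjusted p = 0.0483), and its call was lost in 11 of 17 alternatives, over which the adjusted p ran from 0.0244 to 0.291. The caspase inhibitor genes differed in direction: Diap1 rose by 0.41 and Diap2 fell by 0.41. The p53 regulator gene Corp fell by 1.18, and the caspase gene Strica rose by 0.94.

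Detoxification genes were among those with the largest decreases. Of 26 tested glutathione S-transferases 7 were higher, 14 were lower and 5 were not called (median -0.40). The share higher, 26.9%, was near the 28.4% over all genes, and the share lower was 53.8% beside 28.3%. GstE6 had 1.25, 1.59 and 0.952 CPM in the double knockdown, against 118, 113 and 118 in the NAT10 knockdown, and 1.73 ± 0.29 in control. That is a log2 fold change of -6.52 ± 0.094 (adjusted p = 2.14e-27). Within the GstE family GstE7, GstE8 and GstE5 fell by 2.78, 2.34 and 2.30. In the GstD family GstD9 had 13.9, 13.1 and 14.6 CPM in the double knockdown, against 76.5, 74 and 76.7 in the NAT10 knockdown (log2 -2.45 ± 0.066), and GstD5 and GstD3 fell by 4.43 and 0.91. GstD and GstE genes lie in clusters of close relatives, so reads may be divided among them. GstE10 went the other way, with 1.1, 1.65 and 0.902 CPM in the double knockdown, against 0, 0 and 0 in the NAT10 knockdown; it was picked out after its values were seen. The P450 genes Cyp6d2 and Cyp6a20 had log2 fold changes of -4.96 and -4.70, although Cyp6d2 shares 51% of its exon bases with nsr on the opposite strand. Of 22 antioxidant genes 5 were higher, 7 were lower and 10 were not called. These shares, 22.7% higher and 31.8% lower, were near the 28.4% and 28.3% over all genes. The peroxiredoxin gene Prx2 fell by 0.69, the p62 gene ref(2)P by 0.55 and the glutathione synthesis gene Gclc by 0.57. Catalase (Cat) rose by 0.57, with 369, 376 and 366 CPM in the double knockdown, against 256, 248 and 247 in the NAT10 knockdown. Transcripts of the Nrf2 gene cnc were not called (0.03 ± 0.035, adjusted p = 0.496).

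The translation repressor gene Thor (4E-BP) was lower and serine synthesis genes were higher. Of 13 genes of the ATF4 branch and amino acid stress 4 were higher, 8 were lower and 1 was not called. The share higher, 30.8%, was near the 28.4% over all genes, and the share lower was 61.5% beside 28.3%. Thor had 8.63, 7.08 and 8.47 CPM in the double knockdown, against 26.7, 25.2 and 25.4 in the NAT10 knockdown (log2 -1.67 ± 0.093, adjusted p = 1.87e-14), and 5.28 ± 0.605 in control. The ATF4 gene crc fell by 0.42, but its count is uncertain, as 73.5% of its exon sequence also belongs to CG46314. Both kinases that act upstream of ATF4, PEK and Gcn2, were slightly lower (-0.24 and -0.22). CG6287, a phosphoglycerate dehydrogenase gene of serine synthesis, had 134, 137 and 149 CPM in the double knockdown, against 35.4, 36 and 34.4 in the NAT10 knockdown (log2 1.99 ± 0.047). The next enzymes of that pathway, CG11899 and aay, rose by 0.92 and 1.78.

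Other genes with the largest decreases were of varied kinds. CG14695 had 3 counts in the double knockdown libraries together and 1059 in the NAT10 knockdown libraries, a ratio of NAT10 knockdown over double knockdown of 391 with a counting interval of 134 to 1895. Arc1, which encodes a capsid-forming protein, had 25.1, 27.6 and 23.6 CPM in the double knockdown, against 574, 601 and 558 in the NAT10 knockdown (log2 -4.51 ± 0.051), with control at 21.2 ± 2.06. The cullin gene Cul2 had 150, 147 and 149 CPM in the double knockdown, against 1029, 990 and 1015 in the NAT10 knockdown (-2.77 ± 0.028), and 155 ± 2.81 in control. These groups did not overlap. Other abundant genes that fell were CG15784 by 3.03, the aldehyde dehydrogenase gene Aldh by 1.96, mfas (midline fasciclin) by 1.65 and unc-13, a synaptic vesicle priming gene, by 1.57. At lower levels the basement membrane gene Ndg, CG32625, CG2065, the receptor gene Ir40a and the Osiris gene Osi15 fell, with log2 fold changes of -5.40, -5.94, -5.85, -4.95 and -4.49. The NF-kappaB factor gene Dif had 12.6, 14.3 and 14.1 CPM in the double knockdown, against 91.9, 93.2 and 96.3 in the NAT10 knockdown (log2 -2.78 ± 0.067), and 6.58 ± 1.01 in control. Of 14 tested Toll and NF-kappaB genes 3 were higher, 6 were lower and 5 were not called. That is 21.4% higher and 42.9% lower, beside 28.4% and 28.3% over all genes. The relative of Dif, dl, fell by 0.39. The peptidoglycan receptor gene PGRP-LC rose by 2.16, with 8.58, 9.78 and 9.17 CPM in the double knockdown, against 1.54, 2.42 and 2.17 in the NAT10 knockdown.

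Temporal identity genes, which set larval or pupal character, moved in both directions. All 7 tested temporal identity factors were called, 4 higher and 3 lower. That is 57.1% higher and 42.9% lower, beside 28.4% and 28.3% over all genes. The BTB factor gene chinmo, which holds tissues in a larval state, had 52, 51.2 and 50.8 CPM in the double knockdown, against 304, 307 and 305 in the NAT10 knockdown (log2 -2.57 ± 0.038, adjusted p = 2.58e-27). In control it had 12.7 ± 0.962, below both knockdowns. The broad gene br, which specifies the pupal program, had 3102, 3045 and 3118 CPM in the double knockdown, against 1492, 1485 and 1447 in the NAT10 knockdown (1.07 ± 0.026), and 3267 ± 89.3 in control. The RNA-binding protein gene Syp and the BTB gene mamo rose by 0.83 and 0.99, and the BTB gene ab fell by 0.75. Eip93F, a later temporal factor, was too low to be tested, with no library above 0.551 CPM.

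Ecdysone-induced genes were mostly higher in the double knockdown, some by large factors. Among 15 tested 12 were higher, none were lower and 3 were not called (median 0.60). The share higher was 80%, beside 28.4% higher and 28.3% lower over all genes. Blimp-1 (FBgn0035625, 3L, 5630983 to 5652094, plus strand in BDGP6.54), a transcriptional repressor that times the prepupal response, had 106, 98.2 and 104 CPM in the double knockdown, against 0.343, 0.412 and 0.444 in the NAT10 knockdown (log2 7.98 ± 0.11, adjusted p = 7.38e-28). It stood at 168 ± 10.1 in control. The inducible secreted and membrane protein genes followed: ImpE2 had 2957, 2841 and 3102 CPM in the double knockdown, against 183, 182 and 194 in the NAT10 knockdown (log2 4.0 ± 0.038), and ImpE1 had 469, 461 and 456 CPM in the double knockdown, against 37.8, 34.8 and 38.2 in the NAT10 knockdown (log2 3.64 ± 0.039). Control discs had 5181 ± 187 CPM of ImpE2 and 768 ± 34.4 of ImpE1, above the double knockdown for both. ImpE3, and Sb, a membrane serine protease gene needed for disc eversion, rose by 2.87 and 1.62. The ecdysone-regulated factor gene Eip74EF rose by 0.19.

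The hormone's nuclear receptor genes were less uniform. Of 12 tested 6 were higher, 3 were lower and 3 were not called. The share higher was 50% beside 28.4% over all genes, and the share lower, 25%, was near the 28.3% over all genes. Hr4 had 103, 107 and 120 CPM in the double knockdown, against 1.03, 1.71 and 0.944 in the NAT10 knockdown, and 164 ± 10.9 in control (log2 6.48 ± 0.13, adjusted p = 5.31e-15). Eip78C had 60.3, 55 and 57.6 CPM in the double knockdown, against 1.49, 1.41 and 1.72 in the NAT10 knockdown (5.22 ± 0.094). Hr3, an activator that acts early in the response, had 57, 53.7 and 58.9 CPM in the double knockdown, against 0.4, 0.295 and 0.889 in the NAT10 knockdown, but 61.8% of its exon length overlaps CG12912 and its count is uncertain. The receptor gene EcR itself fell, with 257, 245 and 250 CPM in the double knockdown, against 327, 315 and 314 in the NAT10 knockdown (log2 -0.34 ± 0.029), and 176 ± 6.27 in control. Its partner gene usp was not called (log2 0.03). The nuclear receptor gene ftz-f1, normally expressed once an ecdysone pulse has passed, had 41, 39.5 and 38.3 CPM in the double knockdown, against 108, 107 and 108 in the NAT10 knockdown (-1.44 ± 0.044), with control at 16.6 ± 0.505. Eip75B and Hr39 rose by 0.78 and 0.54.

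**Figure D4:**
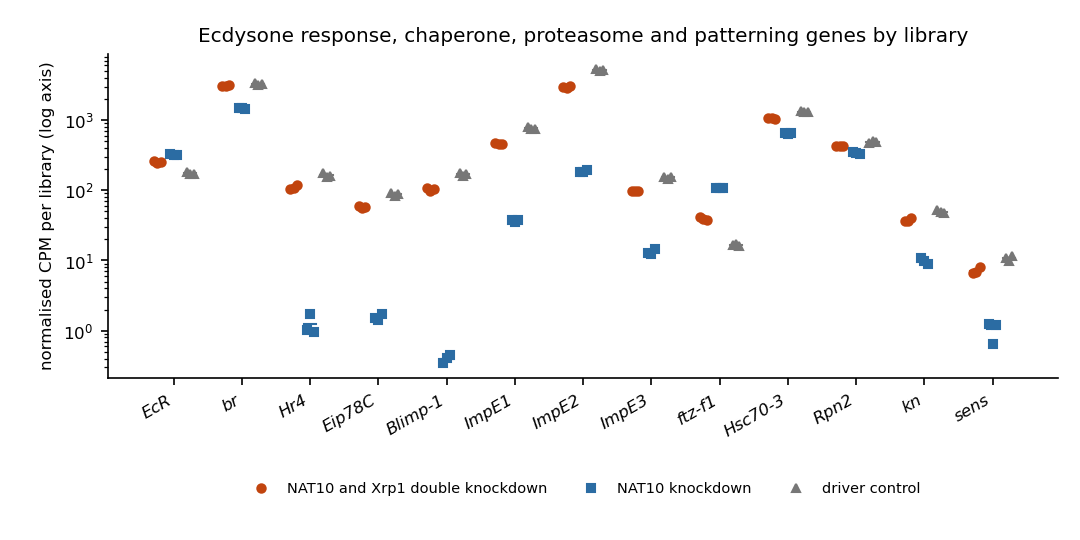
Normalised CPM of 13 genes in each library (log axis), with the double knockdown as circles, the NAT10 knockdown as squares and the driver control as triangles from left to right, and bars at the means. EcR and ftz-f1 are lower in all double knockdown libraries than in all NAT10 knockdown libraries and the other 11 genes are higher.

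Cuticle and chitin genes changed in both directions. Of 31 tested among 96 cuticle protein genes 9 were higher, 10 were lower and 12 were not called. These shares, 29% higher and 32.3% lower, were close to the 28.4% and 28.3% over all genes. The other list counts of this paragraph are to be read beside the same background. Cpr49Ac had 244, 251 and 253 CPM in the double knockdown, against 27.5, 26 and 29.9 in the NAT10 knockdown (log2 3.16 ± 0.04), and Cpr49Ah had 48.3, 39.3 and 43.9 CPM in the double knockdown, against 190, 184 and 197 in the NAT10 knockdown (-2.12 ± 0.051). These members of 1 gene cluster thus moved oppositely. Among 21 chitin genes 3 were higher, 14 were lower and 4 were not called. The chitinase gene Cht10 rose, with 2066, 2043 and 1952 CPM in the double knockdown, against 839, 819 and 828 in the NAT10 knockdown (1.29 ± 0.027), while Cht5 and Cht7 fell by 0.80 and 0.63. Of the Osiris and Tweedle families 9 of 50 genes were tested, and 4 were higher, 2 were lower and 3 were not called. Osi14 fell by 3.49. Of 13 tested serpins, a family of protease inhibitors, 2 were higher, 7 were lower and 4 were not called. The 2 that rose were Spn100A, with 76.6, 76.9 and 78.8 CPM in the double knockdown, against 1.14, 0.648 and 0.944 in the NAT10 knockdown (6.39 ± 0.092), and Spn43Aa, by 3.14. Among 13 tanning genes 6 were higher, 1 was lower and 6 were not called; ple, tyrosine hydroxylase, rose by 2.11.

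Genes of the endoplasmic reticulum, the secretory pathway and the proteasome were higher almost throughout, each by a small amount. The counts of these lists are to be read beside 28.4% higher and 28.3% lower over all genes. Of 21 endoplasmic reticulum chaperone and unfolded protein genes 18 were higher, none were lower and 3 were not called (median 0.24). Hsc70-3, the fly BiP, had 1061, 1053 and 1047 CPM in the double knockdown, against 652, 639 and 655 in the NAT10 knockdown (log2 0.70 ± 0.024), and 1321 ± 8.87 in control. The protein disulphide isomerase gene Pdi, the chaperone gene Gp93 and the transcription factor gene Xbp1 rose by 0.75, 0.63 and 0.66. Of 33 secretory pathway genes 28 were higher, none were lower and 5 were not called (median 0.26). CrebA, a bZIP activator of secretory genes, had 153, 151 and 142 CPM in the double knockdown, against 75.6, 79.1 and 73.6 in the NAT10 knockdown (0.97 ± 0.04). The translocon gene Sec61alpha and the vesicle coat gene Sec23 rose by 0.68 and 0.40. Among 32 proteasome subunit genes 28 were higher, none were lower and 4 were not called (median 0.18). For 31 of them every double knockdown library lay above every NAT10 knockdown library, as it did for 31.1% of all genes. Rpn2 had 432, 422 and 423 CPM in the double knockdown, against 350, 334 and 331 in the NAT10 knockdown (0.33 ± 0.028), and 487 ± 10.1 in control. The catalytic subunit gene Prosbeta5 rose by 0.19.

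Cytosolic ribosomal protein genes were mostly lower, by small amounts. Over all genes 28.4% were higher and 28.3% lower, and the list counts below are to be read beside these shares. Of 88 tested 59 were lower, 1 was higher and 28 were not called (median log2 -0.21). Without double knockdown replicate 3, which stood apart from its group, 67 were lower. RpL27A had 1529, 1599 and 1595 CPM in the double knockdown, against 2028, 2023 and 2058 in the NAT10 knockdown (log2 -0.37 ± 0.025), and 1428 ± 29.8 in control. RpL10Ab, RpL5 and RpL7A fell by 0.35, 0.31 and 0.29. The 1 that rose was RpS19b, a paralogue of RpS19a, with 3.16, 3.46 and 3.56 CPM in the double knockdown, against 0.458, 0.295 and 1 in the NAT10 knockdown. Of 37 ribosome biogenesis genes 4 were higher, 17 were lower and 16 were not called. The nucleolar GTPase gene Non1 had 609, 605 and 601 CPM in the double knockdown, against 1113, 1139 and 1098 in the NAT10 knockdown (-0.88 ± 0.027), and the large-subunit factor gene eIF6 fell by 0.88. RIOK1, a kinase of small-subunit maturation, fell by 0.51, and the box C/D protein gene nop5 rose by 0.25. Its partner genes Nop56 and Fib fell by 0.09 and 0.10. The calls of Nop56 and Fib were lost in some alternatives, over which the adjusted p ran from 0.00271 to 0.284 and from 0.00266 to 0.0691. Mitochondrial ribosomal protein genes were mostly not called: of 75 tested, 5 were higher, 19 were lower and 51 were not called, and the higher count fell to 2 or 3 without double knockdown replicate 1 or 2 or NAT10 knockdown replicate 2 or 3. Of 20 aminoacyl-tRNA synthetase genes 3 were higher, 5 were lower and 12 were not called, and 3 were lower without double knockdown replicate 3 or NAT10 knockdown replicate 1 or 2. GlnRS fell by 0.27 and LeuRS rose by 0.25. The shares lower of the mitochondrial ribosomal protein and synthetase lists, 25.3% and 25%, were near that over all genes.

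Wing patterning genes were mostly higher in the double knockdown, in particular vein, selector and bristle genes. Of 13 vein and intervein genes 11 were higher, 1 was lower and 1 was not called (median 0.33). Over all genes 28.4% were higher and 28.3% lower, and each list count of this paragraph is to be read beside these shares. The intervein factor gene bs had 122, 127 and 135 CPM in the double knockdown, against 55.3, 59.1 and 53.7 in the NAT10 knockdown (log2 1.19 ± 0.044), and 158 ± 2.4 in control. The vein-spacing gene kn had 36.9, 36 and 40 CPM in the double knockdown, against 11, 9.78 and 8.78 in the NAT10 knockdown (1.93 ± 0.079). The exception was net, a bHLH repressor of vein fate, which fell by 1.00. Among 20 selector genes 15 were higher, 1 was lower and 4 were not called (median 0.28). The hinge gene hth and the notum gene pnr rose by 0.53 and 0.64, and the wing pouch gene nub was not called (0.03 ± 0.026, adjusted p = 0.297). Of 10 proneural and bristle genes 8 were higher, none were lower and 2 were not called (median 1.00). The bristle precursor gene sens had 6.68, 6.87 and 8.02 CPM in the double knockdown, against 1.26, 0.648 and 1.22 in the NAT10 knockdown (2.77 ± 0.19), and ase and sc rose by 2.16 and 0.71.

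Of 23 Wingless and Notch margin genes 13 were higher, 2 were lower and 8 were not called. For this list and those that follow here, the shares over all genes were 28.4% higher and 28.3% lower. The distal selector Dll had 109, 106 and 121 CPM in the double knockdown, against 50, 53.3 and 50.3 in the NAT10 knockdown (log2 1.13 ± 0.05), and the margin genes vg and ct rose by 0.80 and 0.80. The ligand gene wg itself rose by only 0.12. Among 20 compartment, Hedgehog and Dpp genes 11 were higher, 2 were lower and 7 were not called, and 1 was lower without double knockdown replicate 3. The ligand gene hh was not called (-0.05 ± 0.044, adjusted p = 0.311), and the Dpp target salm rose by 0.46. Of 17 Hippo and Fat-Dachsous genes 10 were higher, none were lower and 7 were not called. The growth restraining kinase gene wts and the polarity gene crb rose by 0.42 and 0.34. The growth effector gene yki was not called (0.16 ± 0.083, adjusted p = 0.139; 0.00184 to 0.274 over the alternatives).

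Adhesion and actin genes were mostly higher in the double knockdown. Their counts are to be read beside 28.4% higher and 28.3% lower over all genes. Of 19 adhesion and polarity genes 14 were higher, 1 was lower and 4 were not called; without driver control replicate 1 or 2 the lower count was 2. The E-cadherin gene shg rose by 0.29, with 988, 968 and 934 CPM in the double knockdown, against 795, 782 and 782 in the NAT10 knockdown, and the tumour suppressor gene l(2)gl fell by 0.31. Among 11 actin and actomyosin genes 8 were higher, 2 were lower and 1 was not called; the lower count was 1 without double knockdown replicate 3 or NAT10 knockdown replicate 1 or 3. The myosin II gene zip and the profilin gene chic both rose by 0.35. Of 14 basement membrane genes 7 were higher, 4 were lower and 3 were not called. The share higher was 50%, and the share lower, 28.6%, was near that over all genes. The matrix gene Ppn had 888, 907 and 854 CPM in the double knockdown, against 381, 378 and 377 in the NAT10 knockdown (log2 1.22 ± 0.026), and the collagen gene Col4a1 fell by 0.20.

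The counts of growth and cell cycle genes are to be read against 28.4% higher and 28.3% lower over all genes. Of 17 insulin, TOR and Myc genes 6 were higher, 5 were lower and 6 were not called (35.3% higher and 29.4% lower), and 3 were lower without NAT10 knockdown replicate 1. The insulin receptor gene InR had 167, 170 and 167 CPM in the double knockdown, against 97.9, 101 and 93 in the NAT10 knockdown (0.79 ± 0.037). Transcripts of Myc were not called (adjusted p = 0.963), although 40.9% of its exon bases overlap CG12535 on the opposite strand, and its antagonist gene Mnt rose by 0.80. Among 35 cell cycle and replication genes 5 were higher, 10 were lower and 20 were not called (14.3% higher and 28.6% lower). The higher count ran from 3 without double knockdown replicate 1 to 8 without double knockdown replicate 3 or NAT10 knockdown replicate 1 or 2. The mitotic phosphatase gene stg and PCNA fell by 0.26 and 0.21. Of 14 glycolysis genes 8 were higher, 2 were lower and 4 were not called; lactate dehydrogenase (Ldh) had 11.1, 12.2 and 12.8 CPM in the double knockdown, against 29.6, 32.9 and 28 in the NAT10 knockdown (-1.32 ± 0.1). Of 65 oxidative phosphorylation genes 4 were higher, 11 were lower and 50 were not called, and 6 were lower without NAT10 knockdown replicate 2. Of 20 autophagy genes 2 were higher, 9 were lower and 9 were not called; Atg1, the initiating kinase, rose by 0.52 and Atg6, the fly Beclin, fell by 0.68.

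Most fat body genes and the Hsp70 genes had a higher level in the double knockdown than in the NAT10 knockdown and control. Of 11 tested fat body genes 9 were higher, 1 was lower and 1 was not called (median 3.82). That is 81.8% higher and 9.09% lower, beside 28.4% and 28.3% over all genes. The 1 that was lower, Sr-CI, is a hemocyte scavenger receptor gene. Its call was lost without double knockdown replicate 1 or 3 or NAT10 knockdown replicate 2 or 3. The summed level of 8 fat body markers was 1379, 1370 and 1332 CPM in the double knockdown, against 67.9, 73.7 and 65.5 in the NAT10 knockdown, with control at 15.6, 18.0 and 16.1. The larval storage protein gene Lsp1gamma had 375, 373 and 350 CPM in the double knockdown, against 16.3, 17.4 and 15.9 in the NAT10 knockdown (log2 4.47 ± 0.049, adjusted p = 6.8e-30). The storage protein gene Lsp2 and the fat body receptor gene Fbp1 rose by 4.19 and 6.26, and Fbp1 had 258, 249 and 249 CPM in the double knockdown, against 3.89, 3.42 and 2.56 in the NAT10 knockdown. All 8 of these markers were higher. Fat body is a separate larval organ, and the part of fat body RNA in these and the other results was not tested.

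Among 16 Hsp70 family and co-chaperone genes 12 were higher, none were lower and 4 were not called (median 0.70). Without double knockdown replicate 3, 1 was lower. The share higher was 75%, beside 28.4% higher and 28.3% lower over all genes. The 6 nearly identical Hsp70 copies share reads, so their sum is given: 2263, 2239 and 2195 CPM in the double knockdown, against 426.4 to 435.4 in the NAT10 knockdown, with control at 176.6 to 180.3. Hsp68 had 340, 338 and 331 CPM in the double knockdown, against 67, 67 and 63.5 in the NAT10 knockdown (2.35 ± 0.038), and 33.6 ± 2.21 in control, and the co-chaperone gene DnaJ-1 rose by 0.97. The gene of their activator, Hsf, was not called (0.04 ± 0.038, adjusted p = 0.436). Of 7 small heat shock protein genes 6 were higher (85.7%, beside the same 28.4%), none were lower and 1 was not called. Hsp27 had 1951, 2007 and 1983 CPM in the double knockdown, against 624, 656 and 639 in the NAT10 knockdown (1.63 ± 0.026) and 2010 ± 6.12 in control, so its double knockdown level was near that of control, unlike that of Hsp68. All exon bases of Hsp22 (100%) lie in CG4456, and its count, 72.9 ± 0.0869 CPM in the double knockdown and 11 ± 0.339 in the NAT10 knockdown, is uncertain.

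**Figure D5:**
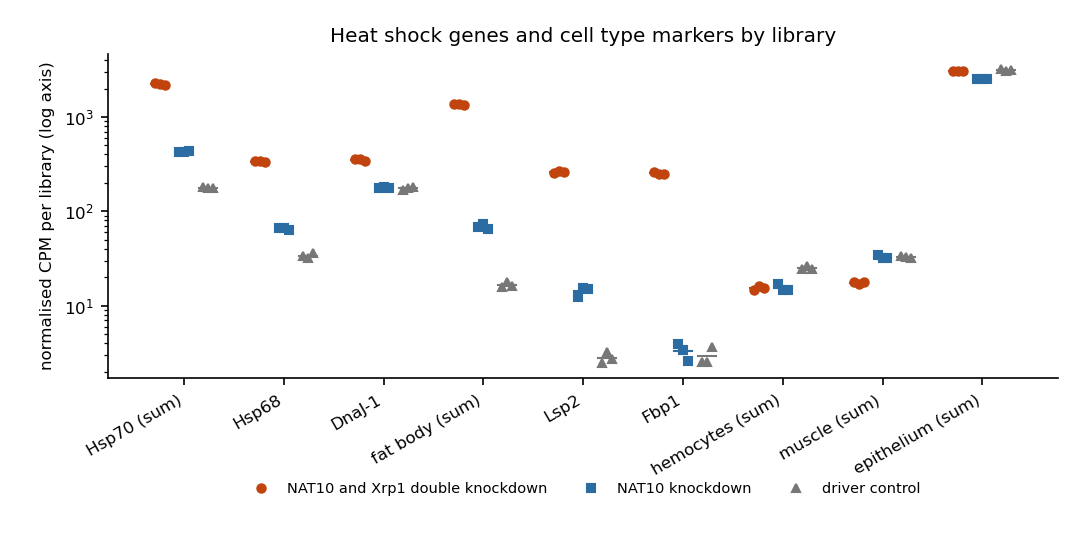
Normalised CPM per library (log axis) of heat shock genes, fat body genes and summed markers of 4 cell types, with the double knockdown as circles, the NAT10 knockdown as squares and the driver control as triangles from left to right, and bars at the means. The Hsp70 and fat body sums are highest in the double knockdown, at 2195 to 2263 and 1332 to 1379 CPM, hemocyte markers are at 14.5 to 17.0 in both knockdowns, and the muscle sum is lower in the double knockdown mostly through 1 gene, Mlc2.

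Summed markers of other tissues differed in direction between tissues. Counts of called members are to be read beside 28.4% higher and 28.3% lower over all genes. Summed over 7 hemocyte markers, of which 1 was lower and none higher, the level was 15.3 ± 0.848 CPM in the double knockdown, against 15.4 ± 1.43 in the NAT10 knockdown, with control at 25.1 ± 0.846. The 6 differentiated muscle markers summed to 17.5 ± 0.533 CPM in the double knockdown, against 32.8 ± 1.22 in the NAT10 knockdown, with control at 32.6 ± 0.917. That difference was mostly in the myosin light chain gene Mlc2, the 1 marker called lower, with 12.3, 11.9 and 11.7 CPM in the double knockdown, against 28.3, 26.7 and 26.1 in the NAT10 knockdown. The other 5 were not called, at log2 fold changes of -0.35 to 0.48. All 5 adult muscle precursor markers were higher and summed to 174 ± 5.23 CPM in the double knockdown, against 128 ± 2.08 in the NAT10 knockdown, with control at 178 ± 1.5. All 9 tested adult muscle precursor genes were higher (median 0.54), among them zfh1, by 1.06, while of 14 contractile genes 6 were higher, 2 were lower and 6 were not called. Of 10 hemocyte and crystal cell genes 2 were higher, 1 was lower and 7 were not called; Hml, the 1 that was lower, was not called without NAT10 knockdown replicate 1 (adjusted p = 0.0583; 0.00208 to 0.0583 over the alternatives). Malpighian tubule markers summed to 13.7 ± 1.13 CPM in the double knockdown, against 0.136 ± 0.137 in the NAT10 knockdown, with control at 0.244 ± 0.0959, mostly Alp4, a tubule alkaline phosphatase gene that had 0 counts in the NAT10 knockdown. The tubule marker gene Uro had 1, 0.934 and 1.1 CPM in the double knockdown, against 0.0572, 0.118 and 0 in the NAT10 knockdown. Of the 5 tubule markers only 2, Alp4 and Uro, were high enough to be tested. Both passed the filter only through the double knockdown, which fixed their direction, so their calls are not a test of it. In the wider list of tubule genes 4 were tested, of which 3 were higher and 1, NKCC, was lower (log2 -3.01). Alp4 is in this list as well, so its count is no test of direction either. Salivary gland markers, 6 in number, summed to 1.07 ± 0.259 CPM in the double knockdown, against 0.227 ± 0.0919 in the NAT10 knockdown, with control at 0.944 ± 0.199. Only fkh, a transcription factor gene, was high enough to be tested. It had 38 counts in the double knockdown and 0 in the NAT10 knockdown and in control. That is at least 11.4-fold higher on a floor of 3 counts over the NAT10 knockdown group. It passed the filter only through the double knockdown, which fixed its direction, so its call is not a test of it. The 5 glue protein genes of that list had 2 to 9 counts each in the double knockdown and 0 to 5 in the NAT10 knockdown. In control Sgs3 and Sgs5 had 20 and 21 counts, against 9 and 8 in the double knockdown. The like sums of the double knockdown and control were thus made up of different genes. Midgut markers summed to 0.14 ± 0.0852 CPM in the double knockdown, against 0.112 ± 0.111 in the NAT10 knockdown, with control at 0.111 ± 0.193. Jon25Bi was at 0 in both knockdowns. The 4 neuronal markers summed to 89.1 ± 1.06 CPM in the double knockdown, against 86.5 ± 2.64 in the NAT10 knockdown, with control at 85.3 ± 5.82. That sum was mostly elav, which was not called (log2 0.01). Of the 3 neuronal markers tested 1, Syt1, was higher (log2 3.00) and none were lower.

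The 12 genes with the largest increases at 5 CPM or more were nearly silent in the NAT10 knockdown and in control. Against a floor of 3 counts over the NAT10 knockdown group, the mucin gene Muc11A (FBgn0052656, X, 12059795 to 12065144, plus strand in BDGP6.54) was at least 1550-fold higher in the double knockdown, with 87.9, 90.1 and 88 CPM there. On the same floor kumpel was at least 433-fold, CG10513 at least 320-fold, CG16727 at least 261-fold and Alp4 at least 207-fold higher. The alkaline phosphatase gene Alp7 had 2534 counts in the double knockdown and 1 in the NAT10 knockdown, a ratio of 2289 with a counting interval of 411 to 90407. Fst, a gene induced on recovery from cold, had 55.1, 56.1 and 56.2 CPM in the double knockdown, against 0.0572, 0.0589 and 0 in the NAT10 knockdown. The mucin-related gene Mur18B had 24.9, 22.9 and 24.1 CPM in the double knockdown. The body colour gene y had 9.14, 6.81 and 8.92 CPM in the double knockdown, against 0, 0 and 0 in the NAT10 knockdown, and the eye colour gene v had 1.25, 0.879 and 1.45 CPM in the double knockdown, against 0, 0.0589 and 0 in the NAT10 knockdown. Both y and v are often carried as markers in fly stocks, and the part of stock background in the results was not tested. Of 12 alkaline phosphatase genes 5 were tested, and 4 were higher and none lower, beside 28.4% and 28.3% over all genes. Alp4, Alp7 and Alp8 had 0, 1 and 4 counts in the NAT10 knockdown and 0 in control. These 3 genes passed the filter only through the double knockdown, which fixed their direction, so the count of the list is not a test of it. For scale, control levels were 0.071 ± 0.123 CPM for Muc11A and 0.0762 ± 0.0661 for Fst.

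Loci assembled from the reads and without a FlyBase identifier were mostly lower in the double knockdown. Of 167 such loci tested 87 (52.1%) were lower and 26 (15.6%) higher, beside 28.3% and 28.4% over all genes. Among 50 whose deposited description holds a transposon or retroelement word 37 were lower and 5 higher (median log2 -1.23). Their median was 1.01 between the NAT10 knockdown and control and 0.19 between the double knockdown and control, in comparisons that share libraries. Reads of repeated elements may be divided among copies and their counts are uncertain. Of 11 small RNA silencing genes 3 were higher, 6 were lower and 2 were not called. The lower count was 3 without double knockdown replicate 2 or NAT10 knockdown replicate 2, and the higher count was 0 without double knockdown replicate 1 and 1 without double knockdown replicate 2. The piRNA pathway genes AGO3 and piwi, normally most active in gonads, fell by 1.42 and 0.95, with 4.97, 4.5 and 5.31 CPM in the double knockdown, against 11.6, 14.5 and 13.6 in the NAT10 knockdown for AGO3. Chromosome arms had like shares of called genes: between 25.7% and 30.2% of tested genes on X, 2L, 2R, 3L and 3R were higher, and on chromosome 4, with 70 genes tested, 32.9% were higher and 34.3% lower.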

How the data were processed

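Poly(A)-selected RNA of whole wing discs was sequenced in 9 libraries, 3 of each genotype. Per the submitters' processing notes, the tools were RSEM, StringTie 1.3.1, HISAT2 2.1.0 and fastp 0.18.0. For the genome build the sources used here give no name. The authors deposited 1 table of estimated counts per gene (expected counts, not normalised) and FPKM values; only the counts were used, rounded to whole numbers. The authors' deposited tables of comparisons with control were not used. Of 14168 entries, 13963 had a FlyBase identifier, 205 were loci assembled from the reads and 2283 had no count in any library. Column names gave each sample, and 0 value columns of other series were found. Positions and exon overlaps are from the BDGP6.54 annotation, release 115, and whether counting used strand is not stated, so genes that share exon bases cannot be told apart there.

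The counts were fitted with edgeR 4.0.16 (R 4.3.3): the filterByExpr filter left 8487 genes, with TMM factors, a robust quasi-likelihood fit over all 9 libraries and Benjamini-Hochberg adjustment over all genes tested. The step was tested on simulated counts with known fold changes. A floor of 3 counts corresponds to 0.150 to 0.213 CPM in a library, and counting intervals are exact 95% intervals for counting error only. DESeq2 1.42.0 was an alternative. Tables and figures used Python 3.11.15, pandas 2.3.3, numpy 2.4.6 and matplotlib 3.10.9.

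The comparison's members and its 52 gene lists were chosen with earlier results of these data known; 19 list entries were not found in the table, and the cuticle list's name pattern was corrected after its results were seen. Named genes are the targeted and driver genes, for each direction the 12 largest called fold changes at 5 CPM or more and the 10 largest at 100 CPM or more, all with libraries that do not overlap, and, from each list, preset members and up to 4 called members with the smallest adjusted p. Further list members were named after their values were seen. A few genes are not reported here.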

Additional observations from a re-analysis of the deposited data

How the results depend on the processing

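The 4 counts of called genes (higher, lower, and each at 2-fold) stayed within 1.5 times of those reported in all but 1 setting. With a filter of at least 5 CPM in 3 libraries, 205 genes were at least 2-fold higher and 226 at least 2-fold lower, against 489 and 408; this filter tests fewer genes. DESeq2 called 2408 higher and 1947 lower, of which 2263 and 1887 were also called by edgeR (and 11 lower mitochondrial ribosomal protein genes in place of 19), and 55.3% of its calls were higher, against 50.1%. Leaving out 1 library at a time gave 2294 to 2521 higher and 2024 to 2504 lower, and 492 to 532 and 397 to 440 at 2-fold. Leaving out the assembled loci, an alternative chosen after seeing the data, gave 2420 higher and 2290 lower. The labels do not say whether the replicate numbers pair the samples. Same-numbered double and NAT10 knockdown libraries deviated together with correlations of 0.0528, 0.0587 and 0.013, against -0.0735 to 0.0215 in the other pairs. The deviations are from means of 3 libraries, so these values cannot show whether the numbers pair the samples. With the replicate block 2413 were higher and 2426 lower (486 and 406 at 2-fold). No call changed with it among the 258 named genes tested. No named gene reversed its direction after being called. Calls of hid, Nop56, Fib, AspRS, AGO1 and Hml were lost in at least 1 alternative, and bi, yki, CycB and dap were called in at least 1. Genes with few counts in a genotype have fold changes limited by depth, as given by their floors.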

Other observations

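Some further genes stood far apart between the genotypes; they were picked out after their values were seen. The aldehyde oxidase gene AOX1 had 4.47, 3.84 and 5.06 CPM in the double knockdown, against 88.4, 90.6 and 91 in the NAT10 knockdown (log2 -4.33 ± 0.078, edgeR quasi-likelihood test, adjusted p = 2.58e-25). CG17751 and CG17752 lie beside CG16727 on chromosome arm 3R, and both were higher in the double knockdown, with 6.68, 6.1 and 9.32 CPM in the double knockdown, against 0, 0.0589 and 0.0555 in the NAT10 knockdown for CG17751. For CG17752 the values were 18.9, 18.2 and 17.5 CPM in the double knockdown, against 0.114, 0.118 and 0.0555 in the NAT10 knockdown. The cation-chloride cotransporter gene NKCC, 1 of the tubule genes, fell, with 2.11, 1.26 and 1.6 CPM in the double knockdown, against 13.3, 15 and 12.3 in the NAT10 knockdown (log2 -3.01 ± 0.16). The synaptic vesicle gene Syt1, 1 of the neuronal markers, was higher. It had 2.26, 2.47 and 2.31 CPM in the double knockdown, against 0.286, 0.295 and 0.278 in the NAT10 knockdown (log2 3.00 ± 0.35). A locus assembled from the reads, MSTRG.6486, had 0.452, 0.33 and 0.301 CPM in the double knockdown, against 66.2, 71.3 and 63 in the NAT10 knockdown.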
